A study of Rattus norvegicus with 19 samples.

Results

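The genes described here are small structured noncoding RNA genes of the rat hippocampus, taken as the gene rows whose symbol is an Rfam family accession. Rfam groups RNAs by shared sequence and folded structure, and each Ensembl identifier with such a symbol was kept as a row of its own. A row was a member when it held at least 10 reads in each of at least 10 of the 19 libraries. Of 4043 Rfam rows among the 32623 genes in the files, 1856 had a read in any library and 139 were members. The members belonged to 72 of the 239 families, 56 of them with a single member, and 81 members reached 10 reads in all 19 libraries. Members were thus chosen by their read counts in these same libraries, so that they were detected is no result. Ranked by the 10th highest count over the libraries, the members just inside the threshold, with 10 reads there, were a SNORD113 row (RF00181, ENSRNOG00000058971), a row of RF00396 (ENSRNOG00000058981) and a row of RF00056 (ENSRNOG00000059422). Just outside, with 9 reads there, were a U6 row (RF00026, ENSRNOG00000058504), a SNORD115 row (RF00105, ENSRNOG00000051787) and a row of RF00414 (ENSRNOG00000051585).

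Small structured RNAs do much of the basic RNA work of a cell. The spliceosomal RNAs remove introns, 7SK RNA holds the elongation factor P-TEFb inactive, the RNA of the signal recognition particle (SRP) delivers nascent secretory proteins to the endoplasmic reticulum, RNase P and RNase MRP process transfer and ribosomal RNA precursors, and small nucleolar RNAs (snoRNAs) guide chemical modification of other RNAs. Most of these genes lack a poly(A) tail and have many near-identical copies and pseudogenes across the genome, and some snoRNA clusters, such as SNORD113, SNORD115 and SNORD116, are imprinted and expressed in neurons.

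Hippocampi came from adult male Sprague Dawley rats with a deletion (Del/+, 4 libraries), a duplication (Dup/+, 5) or both (Del/Dup, 4) of the rat interval matching human 16p11.2, and from wt littermates (6). The interval runs from Sult1a1 to Spn, both alleles were made with CRISPR/Cas9, and Del/Dup rats, which carry both, have a balanced copy number. The study's methods give as many rats in each group as there are libraries. One library, wt replicate 5, has conflicting labels: one field gives wt, another Dup/+, and it was analysed as wt with the other reading as an alternative. Kctd13, a gene of the interval, lay between 79.6 and 85.8 CPM (reads relative to the scaled library size) in the 6 wt libraries, wt replicate 5 included, between 110 and 123 CPM in Dup/+, between 36.1 and 50.7 CPM in Del/+ and between 63.6 and 85.3 CPM in Del/Dup. Wt replicate 5 thus had Kctd13 in the range of wt and below every Dup/+ library. Counting it as Dup/+ therefore adds a library with the wt level of Kctd13 to that group. Hippocampal neuron markers, 5 of 7 tested, summed to 1977 to 3022 CPM. The labels describe total RNA with ribosomal RNA removed in one field and poly(A) RNA in another, and the labels alone do not settle which holds. The study's methods name a stranded total RNA kit and also polyA+ RNA. Among these genes, most of which lack a poly(A) tail, the leading 7SK row had 2701 to 3873 CPM in every library.

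Libraries held 16191192 to 38760645 reads assigned to genes. Counting used only reads aligned to 1 place, and 40.1% to 76.3% of the alignment lines counted, where 1 read can give several, were set aside as not unique. This multi-mapped share was at most 50.5% in 12 libraries (all wt and Dup/+ libraries and Del/+ replicate 4) and at least 57.8% in 7 (the other 3 Del/+ libraries and all 4 Del/Dup libraries), so genotype and share cannot be told apart in Del/Dup against wt. For genes with many alike copies, a level here is therefore that of the reads which fell in 1 place, and a copy and its near-identical relatives may exchange reads. The files give no gene lengths, so read shares below do not rank genes by number of molecules. In bulk tissue, fewer cells of a type and less RNA per cell cannot be told apart.

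The 139 members took 0.384% to 0.626% of the gene reads of a library. The 7SK family (RF00100) held 69.4% of all member reads in 24 members, out of 422 rows with that symbol. RNase MRP RNA (RF00030), annotated as 1 row, held 14.1%, and SRP RNA (RF00017) held 4.96% in 14 members out of 33 rows. A row of RF01296 averaged 59.3 CPM, and the Y RNA family (RF00019), RNAs bound by the Ro protein, held 1.1% in 2 members out of 28 rows. Large copy families of spliceosomal and ribosomal RNA hardly passed the threshold: U1 (RF00003) had 4 members out of 219 rows, U6 (RF00026) had 1 out of 916, and 5S ribosomal RNA (RF00001) had 0 out of 286. SNORD113 had 13 members out of 57 rows.

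Within a family, 1 row often carried nearly all reads. The leading 7SK row, ENSRNOG00000058555, held 98.1% of the 7SK member reads, and the next row, ENSRNOG00000061873, held 0.669%. In U4 (RF00015), a spliceosomal RNA, ENSRNOG00000052742 held 98.3%. SRP RNA was spread more evenly, with 33.0%, 20.9% and 17.3% in ENSRNOG00000059449, ENSRNOG00000061297 and ENSRNOG00000052253. The RNase P symbol (RF00009) had 3 members, with mean levels of 0.703 to 2.84 CPM. The gene annotated by name as RNase P RNA, Rpph1, is no Rfam row, and its reads came to 1683 to 3808 CPM per library.

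The leading 7SK row had 3409, 3285, 3697, 3175, 2786 and 3774 CPM in wt replicates 1 to 6. It had 3298, 3287, 3168 and 3113 CPM in Del/+ replicates 1 to 4, and 3489, 3429, 2701, 3342 and 3873 CPM in Dup/+ replicates 1 to 5. In Del/Dup replicates 2 to 5 it had 3140, 2956, 3264 and 3060 CPM, so that all 4 groups overlapped. Against wt it differed by -0.06 ± 0.08 (log2 fold change ± standard error) in Del/+, 0.01 ± 0.08 in Dup/+ and -0.11 ± 0.08 in Del/Dup, with adjusted p = 0.737, 0.994 and 0.50 from edgeR's quasi-likelihood test. RNase MRP RNA averaged 756 ± 227 CPM in wt (SD, n = 6), 627 ± 90.2 in Del/+ (n = 4), 701 ± 136 in Dup/+ (n = 5) and 574 ± 163 in Del/Dup (n = 4), and its adjusted p against wt was 0.495, 0.907 and 0.324. At the family level, summed CPM overlapped with wt in all 72 families and in each of the 3 other genotypes.

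**Figure D1:**
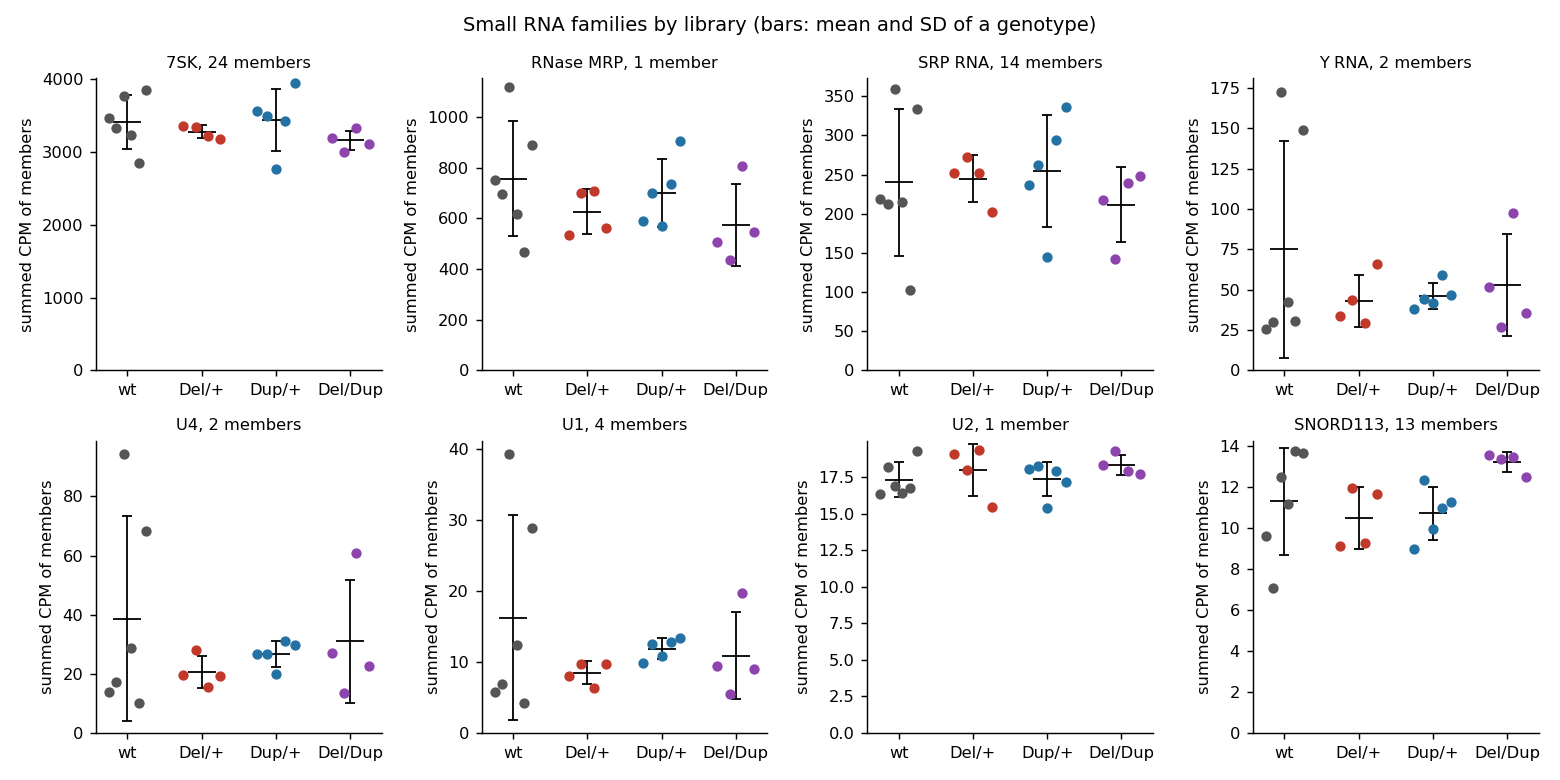
Summed CPM of the members of 8 families in each library (dots), by genotype, with the mean and SD of each group as bars and each axis starting at 0. The groups overlap in every panel, and Y RNA, U4 and U1 show 2 wt libraries far above the other wt libraries while U2 lies between 15.4 and 19.3 CPM throughout.

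Among libraries of the same genotype the members varied far more than other genes. Across the 6 wt libraries, the median SD was 0.62 on the log2 CPM scale over the 139 members and 0.12 over all 15440 genes tested. Over the 21 members of at least 10 CPM the median SD was 0.66, against 0.09 over 9281 genes at that level. The highest wt library was a median of 3.53-fold above the lowest. By class this was 1.95-fold for 7SK, 2.66-fold for the snoRNA families given by name here (U3, SNORA73, SNORD113, SNORD115 and SNORD116), 3.91-fold for SRP RNA, 5.57-fold for spliceosomal RNAs and 8.16-fold for the 2 Y RNA rows. U2 RNA (RF00004, ENSRNOG00000054047), which pairs with the intron branch site, was the steadiest of the members, with a 1.18-fold range in wt.

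Some libraries stood apart from others of their genotype at many members together. Y RNA summed to 173 and 149 CPM in wt replicates 3 and 6 and to 25.4, 30.1, 42.0 and 30.2 CPM in wt replicates 1, 2, 4 and 5. U4, which pairs with U6 before the spliceosome is activated, summed to 94.2 and 68.3 CPM in those 2 libraries and to 13.7, 17.1, 28.6 and 10.0 CPM in the other 4. U1, which recognises the 5′ splice site, had 39.3 and 29.0 CPM against 5.77, 6.91, 12.4 and 4.21 CPM. In the other genotypes, Del/Dup replicate 4 stood highest, with 97.5 CPM of Y RNA and 61.0 CPM of U4. Wt replicate 3 was the highest of the 19 libraries at 63 of the 139 members, or 45.3%, against 5.12% of all genes tested. Del/Dup replicate 4 was the highest at 22 members, or 15.8%, against 5.85% of all genes, and Dup/+ replicate 5 at 12, or 8.63%, against 4.02%. Wt replicate 6 was the highest at 6 members, 4.32% against 4.20% of all genes, though it lay above the mean of the 19 libraries at 121 members.

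A library's median deviation, the middle value over members of log2 CPM minus the mean of the 19 libraries, was 0.62 in wt replicate 3, 0.48 in Del/Dup replicate 4 and 0.44 in wt replicate 6. It was -0.47 in Del/Dup replicate 3, -0.40 in wt replicate 1 and -0.39 in wt replicate 2. Over all genes tested it was 0.01, 0.00 and 0.00 in the first 3 of these libraries and 0.00, -0.00 and -0.00 in the last 3. SRP RNA and U1 departed from this order. Wt replicate 5, the library with conflicting labels, was lowest there, with median deviations of -1.09 and -1.17. Its summed U4, 10.0 CPM, was also the lowest. Wt replicate 5 was the lowest of the 19 libraries at 31 members, or 22.3%, against 5.82% of all genes tested. Del/Dup replicate 3 was the lowest at 25 members and wt replicate 1 at 22. Wt replicate 5 still lay above the mean at 53 members, and its 7SK members stood at -0.09. The multi-mapped share was 47.6% in wt replicate 3, 44.8% in wt replicate 6 and 70.7% in Del/Dup replicate 4, and the files hold no measure of RNA quality.

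**Figure D2:**
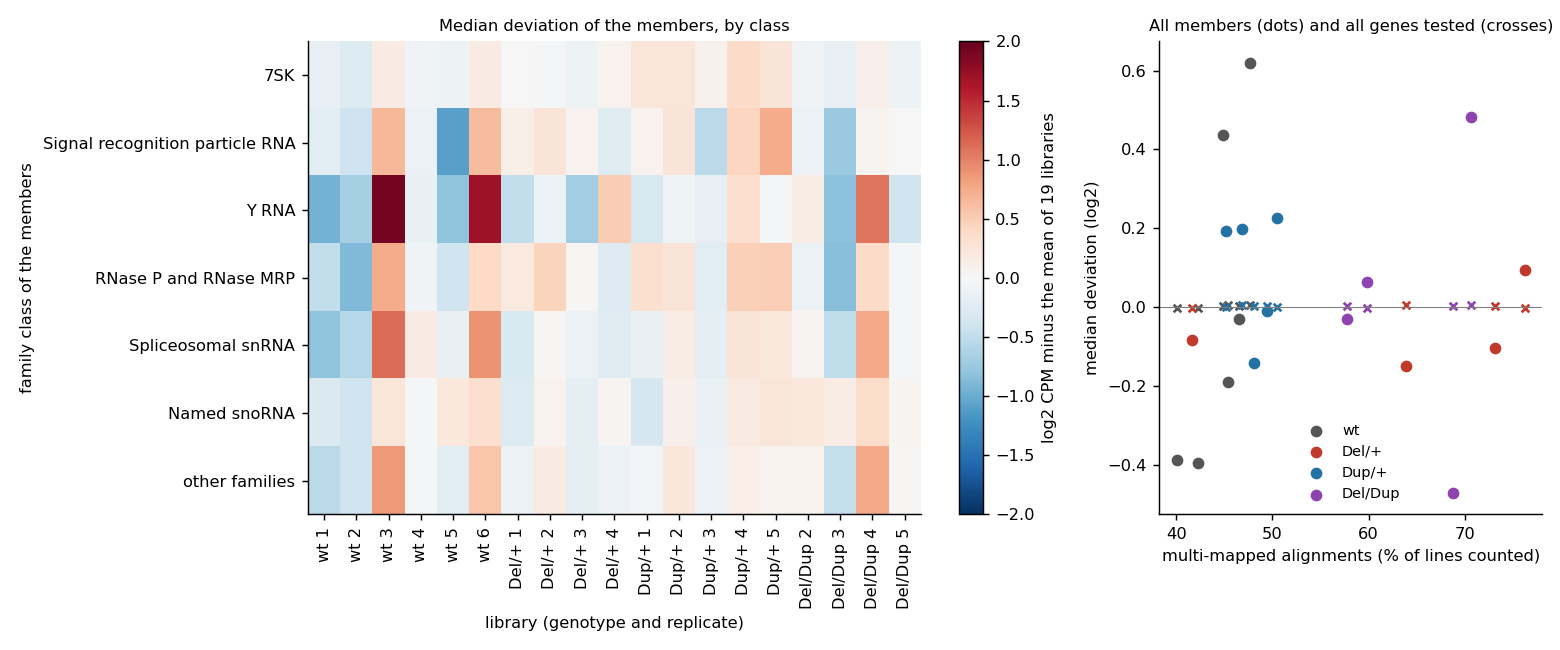
Left, median deviation of the members from the mean of the 19 libraries (log2 CPM, colour) by family class and library; right, the same median over all members (dots) and over all genes tested (crosses) against the multi-mapped share of each library, coloured by genotype. Wt replicates 3 and 6 and Del/Dup replicate 4 stand highest, at 0.62, 0.44 and 0.48 over all members, in both the low and the high range of the share, and the crosses stay near 0.

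Level against the multi-mapped share was fitted as a slope within genotypes over all genes. For the members the median slope was 0.08 log2 units per 10 percentage points, and 99 of 139 slopes were positive, while the median over all genes was 0.00. With edgeR, 0 members passed an adjusted p of 0.05, as did 0.0% of all genes tested, and with DESeq2 also 0 members passed. At an unadjusted p under 0.05 there were 6 members with edgeR and 8 with DESeq2, and the 6 were 4.32% of the members against 5.95% of all genes. The slopes of those 6 ran from -0.24 to 0.57, and their smallest adjusted p was 0.756. All 3 oligodendrocyte markers tested had such a p for the slope, with a median of -0.12, as did 2 of 4 red cell rows, also with a median of -0.12, and their part in the members' slopes was not tested. Within the 12 libraries of low share alone, 29 of 139 members had an unadjusted p under 0.05, against 4.34% of all genes. The median slope there was 0.71. Over libraries of low and high share together, but without wt replicates 3 and 6 and Del/Dup replicate 4, the members' median slope was -0.00. That value compares with the 0.08 of all libraries, and the choice of libraries was made after seeing the data.

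The comparison of Del/+ with wt addresses genes whose level goes with the lost copy of the interval. Among the members 2 were called higher and 0 lower, at 1.44% of the members against 0.771% of all genes. One of the 2, ENSRNOG00000061829, became a member through the groups where it is high, so its part of this count is no result, and the other call alone is not set apart from that share. The members' median log2 fold change was -0.12, and 53 of 139 were positive. At an unadjusted p under 0.05 there were 12 members, or 8.63%, against 18.4% of all genes. They include ENSRNOG00000061829 and ENSRNOG00000054944, both members through the groups where they are high, whose part of this count is no result. Spliceosomal rows (median -0.41, 7 of 9 negative), both Y RNA rows (-0.92 and -0.69) and 5.8S ribosomal RNA (RF00002, -0.94 ± 0.38, adjusted p = 0.188) lay lower without a call, and wt replicates 3 and 6 held the highest wt values of summed Y RNA, U1 and U4 and of 5.8S. Leaving out those 2 libraries and Del/Dup replicate 4 turned the members' median to 0.22, and leaving out wt replicate 3 alone turned it to 0.02. RF01268 (ENSRNOG00000051850), one of the 10 members with most reads, had 39.0, 28.6, 60.3, 40.6, 42.7 and 50.0 CPM in wt replicates 1 to 6 and 29.6, 28.3, 31.9 and 29.6 CPM in Del/+ replicates 1 to 4. The Del/+ libraries overlapped the lowest wt library and lay below the other 5. Its log2 fold change was -0.54 ± 0.15 with adjusted p = 0.0901 in edgeR, and -0.54 with adjusted p = 0.0164 in DESeq2, which called it lower. Of the omissions of 1 library, only that of wt replicate 2, the wt library that overlapped Del/+, gave a call in edgeR (adjusted p = 0.0342).

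A minor copy of 7SK, ENSRNOG00000061829, was one of the 2 called. It held 3, 4, 5, 4, 11 and 7 reads in wt replicates 1 to 6 and 20, 12, 26 and 26 reads in Del/+ replicates 1 to 4. In CPM these were 0.0798 to 0.338 in wt and 0.692, 0.492, 0.684 and 0.698 in Del/+, so every Del/+ library stood above every wt library. The row reached 10 reads in 10 libraries, of which 1 was wt, 4 were Del/+, 4 Dup/+ and 1 Del/Dup, so it became a member through the groups where it is high, and its difference from wt is a description of values the choice of members used. Its fitted log2 fold change was 1.47 ± 0.30 with adjusted p = 0.0205. Set against the same wt libraries, Dup/+ differed by 1.35 ± 0.29 with adjusted p = 0.0555, and Del/Dup by 0.86 ± 0.32 with adjusted p = 0.212. With a term for the high multi-mapped share the log2 fold change was 1.57. That term leaves Del/+ replicate 4, the only Del/+ library of low share, alone against wt, so it cannot decide the call. The replicate numbers did not pair the libraries. With them as a block the Del/+ call ended (adjusted p = 0.0541 in edgeR), as it did with the share as a covariate (0.0767). Omitting wt replicate 1, 2 or 3 or Del/+ replicate 4 ended it too, with adjusted p between 0.0516 and 0.0747 in edgeR.

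The other was a copy of SRP RNA, ENSRNOG00000051703, which held 1.86% of the SRP RNA reads. Its CPM was 2.92, 2.96, 4.93, 2.70, 1.84 and 4.58 in wt replicates 1 to 6, and 7.26, 9.43, 8.37 and 5.51 in Del/+ replicates 1 to 4, again without overlap. The log2 fold change was 1.19 ± 0.25 with adjusted p = 0.0297. With the term for the high multi-mapped share, which again sets Del/+ replicate 4 alone against wt, it was 0.73. With wt replicate 5 counted as Dup/+ it was 1.07 with adjusted p = 0.0796. The replicate block and the share as a covariate ended the call too (adjusted p = 0.0600 and 0.194 in edgeR). Omitting wt replicate 1, 2 or 5 or Del/+ replicate 2 or 3 ended it as well, with adjusted p between 0.0535 and 0.136 in edgeR. In Dup/+ it had 3.51, 3.74, 2.51, 4.50 and 7.08 CPM, overlapping both groups. The remaining 13 SRP RNA rows lay between -0.17 and 0.38 in Del/+ against wt, none with an unadjusted p under 0.05. Members standing above every wt library in all Del/+ libraries numbered 2, these same rows (the first of them a member through those groups), against 2.23% of all genes, and 0 stood below, against 2.7%. Choroid plexus markers, 5 of 5 tested, summed to 2.79 to 33.8 CPM in wt and 4.80 to 1246 CPM in Del/+, with 5 at an unadjusted p under 0.05. Oligodendrocyte markers, 3 of 3 tested, summed to 4233 to 5525 CPM in wt and 5046 to 7603 CPM in Del/+, with 3 at an unadjusted p under 0.05. Hippocampal neuron markers summed to 2343 to 3022 CPM in wt and 2089 to 2391 CPM in Del/+, with 2 of 5 at such a p, as were 2 of 4 microglia and 1 of 3 astrocyte markers. The part of these markers in the results was not tested.

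**Figure D3:**
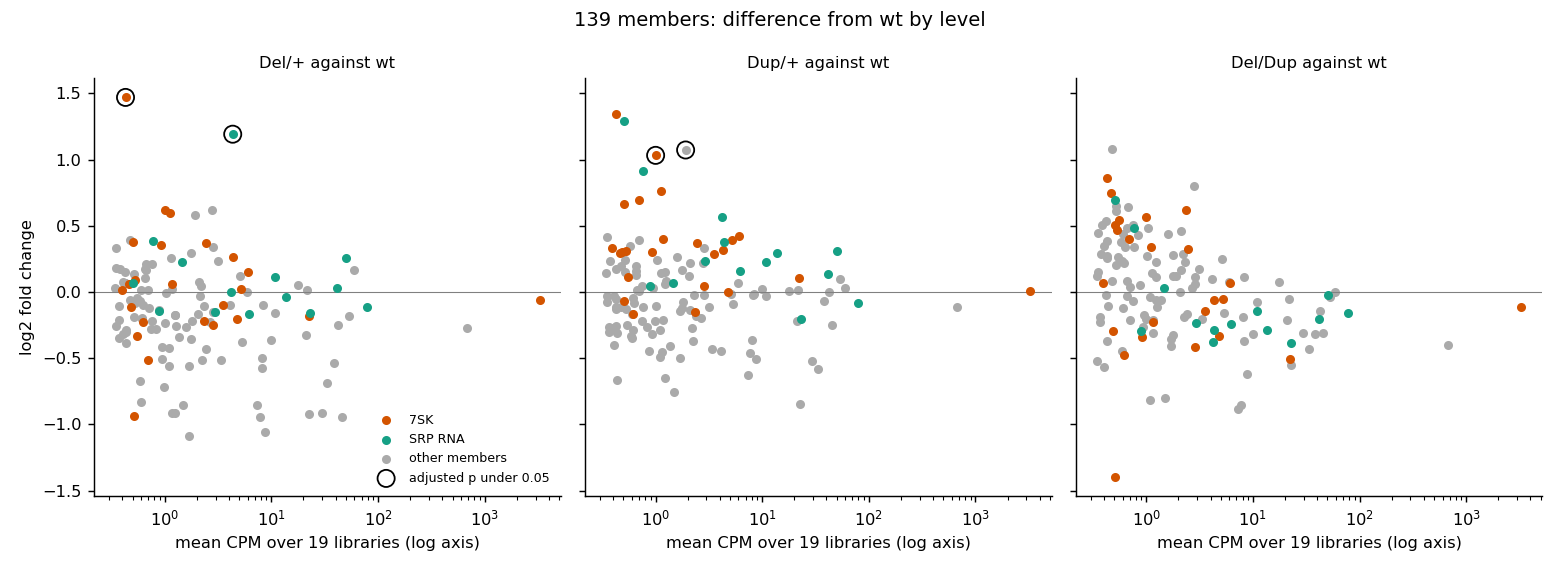
Log2 fold change against wt (vertical axis) and mean CPM over the 19 libraries (horizontal log axis) for the 139 members, one panel per genotype, with rings around members with adjusted p under 0.05. Rings mark 2 members in Del/+, 2 in Dup/+ and 0 in Del/Dup, all below 10 CPM, and the leading 7SK row at the far right lies near 0 in each panel.

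In Dup/+ against wt, which addresses the added copy, 2 members were called higher and 0 lower, 1.44% of members against 0.272% of all genes. The members' median was -0.01, with 68 of 139 positive, and it was 0.13 without wt replicate 3 and 0.34 without wt replicates 3 and 6 and Del/Dup replicate 4. Another minor 7SK copy, ENSRNOG00000051895, had 0.744, 0.467, 0.593, 0.650, 0.460 and 0.995 CPM in wt replicates 1 to 6 and 1.36, 1.31, 1.67, 1.54 and 1.15 CPM in Dup/+ replicates 1 to 5. All Dup/+ values were above all wt values, on 15 to 28 reads per wt library and 28 to 40 per Dup/+ library. Its log2 fold change was 1.03 ± 0.18 with adjusted p = 0.00718, and it was the single member whose Dup/+ libraries all exceeded wt, against 0.674% of all genes. Members below every wt library numbered 0, against 0.499% of all genes. With wt replicate 5 counted as Dup/+ the log2 fold change of ENSRNOG00000051895 was 0.78 with adjusted p = 0.434, which ended the call. The row also differed from the same wt libraries by 0.62 ± 0.19 in Del/+ (adjusted p = 0.102) and, in Del/Dup, by 0.56 ± 0.19 with adjusted p = 0.194.

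An RNase P row, ENSRNOG00000053929, was the second member called in Dup/+. Its CPM was 1.44, 0.965, 2.0, 0.924, 0.859 and 1.91 in wt replicates 1 to 6 and 2.64, 3.32, 1.55, 3.12 and 3.68 in Dup/+ replicates 1 to 5. Dup/+ replicate 3 lay inside the wt range and the other 4 above it. In Del/+ it had 2.11, 2.34, 1.68 and 2.07 CPM, with 3 of the 4 libraries above the highest wt library, and differed from the same wt libraries by 0.58 ± 0.24 with adjusted p = 0.198. Del/+ and Dup/+ differed by -0.49 ± 0.24 with adjusted p = 0.394, and Del/Dup and wt by 0.12 ± 0.25 with adjusted p = 0.835. The log2 fold change was 1.07 ± 0.22 with adjusted p = 0.0445, and 0.79 with adjusted p = 0.539 when wt replicate 5 was counted as Dup/+. The call also ended with the replicate number, which did not pair the libraries, as a block (adjusted p = 0.127 in edgeR). It ended too with the multi-mapped share as a covariate (0.0664) and with a term for its high range (0.0593). Omitting any 1 of 14 libraries ended it, with adjusted p between 0.0557 and 0.185 in edgeR, and it held without wt replicate 3 or 6, or replicate 3 of Del/+, Dup/+ or Del/Dup. Rpph1, named here after its values were seen, differed by -0.23 ± 0.15 in Dup/+ with adjusted p = 0.678.

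Of the 24 members of the 7SK family, 21 had a positive log2 fold change in Dup/+ against wt, with 1 called by edgeR and 3 by DESeq2 (ENSRNOG00000051895, ENSRNOG00000053636 and ENSRNOG00000061829, the last a member mainly through Dup/+ and Del/+ libraries, so that its call is no result), where DESeq2 called 0.518% of all genes, and the median was 0.31, against -0.00 over all genes tested. An unadjusted p under 0.05 was found for 9 of the 24, where 8.94% of all genes had one. ENSRNOG00000061829 is among the 9, and its part of this count is no result either. The leading row, with nearly all of the reads, was not among them. In Del/+ the 7SK members had 13 positive values, a median of 0.02 and 5 with such a p, where 18.4% of all genes had one. In Del/Dup they had 12 positive values, a median of 0.01 and 9 with such a p, against 16.2% of all genes. The counts in Del/+ and in Del/Dup both include ENSRNOG00000061829 and ENSRNOG00000054944. These 2 rows became members through the groups where they are high, so their part of the counts is no result. Of the 24 members, 14 reached 10 reads in all 19 libraries, and the others were members through some libraries only. The 24 rows share sequence and may share reads, so they are not 24 separate observations. Leaving out 1 library at a time kept the Dup/+ median between 0.26 and 0.36, and counting wt replicate 5 as Dup/+ gave 0.24 with 19 positive. SRP RNA rows had 12 of 14 positive and a median of 0.23 in Dup/+, but -0.05 and 5 positive with wt replicate 5 counted as Dup/+. Red cell genes moved with this comparison: Hbb and 2 rows of Hba-a2 were called higher in Dup/+, and 4 red cell rows summed to 117 to 159 CPM in wt and 179 to 243 CPM in Dup/+, without overlap. Choroid plexus markers, 2 of 5 at an unadjusted p under 0.05 with a median of 2.26, summed to 2.79 to 33.8 CPM in wt and 6.11 to 402 CPM in Dup/+. Of the oligodendrocyte and microglia markers 1 of 3 and 1 of 4 had such a p. Their part in the 7SK values was not tested.

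**Figure D4:**
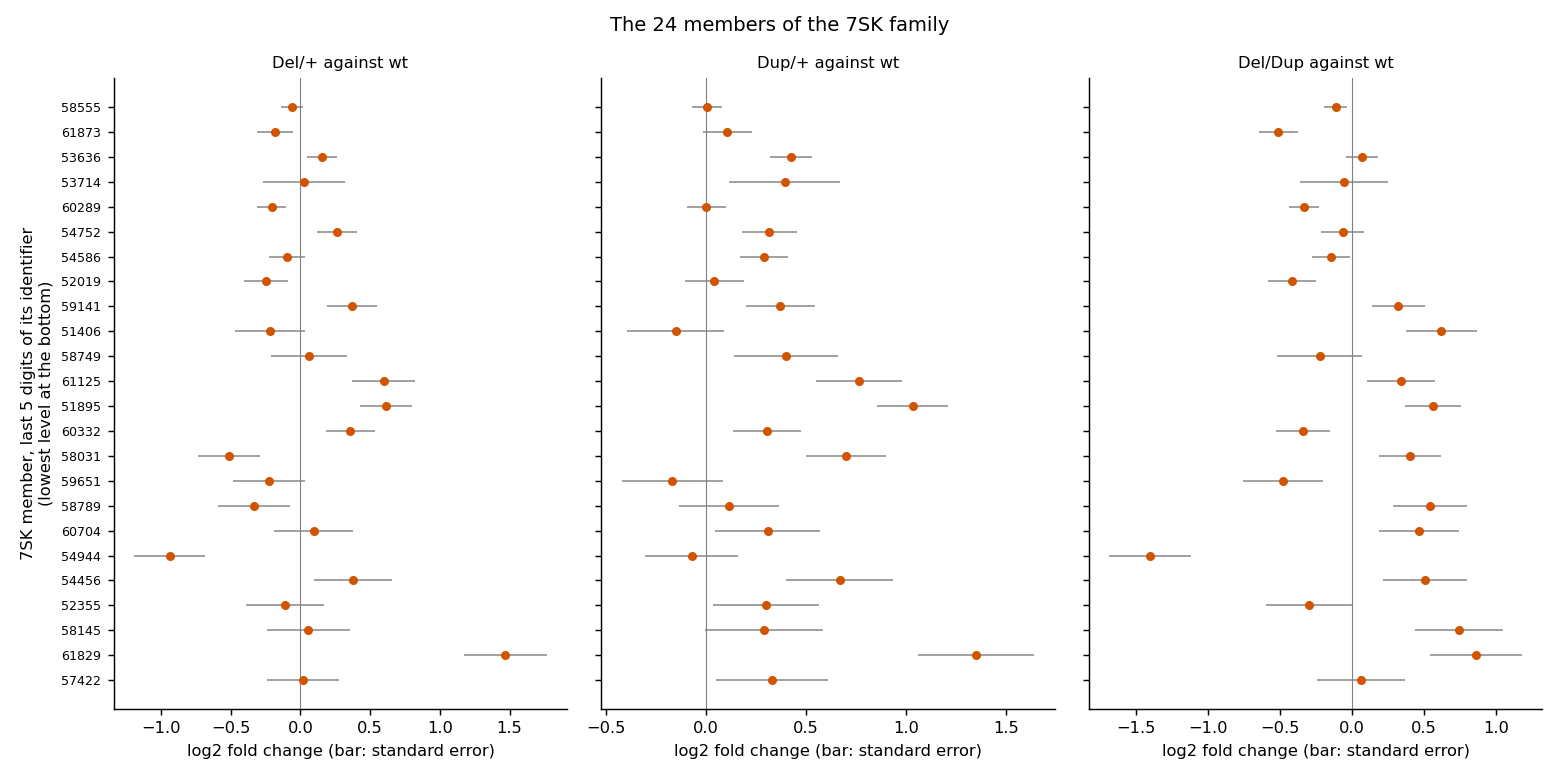
Log2 fold change against wt with its standard error (bars) for the 24 members of the 7SK family in 3 genotypes, ordered by mean CPM with the leading row at the top. In Dup/+ 21 of 24 lie right of 0, against 13 in Del/+ and 12 in Del/Dup, while the leading row is close to 0 in all 3 panels; the comparisons share the wt libraries.

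Del/Dup against wt sets rats with balanced copy number beside controls. With edgeR 0 members were called, against 0.0907% of all genes, and 15 members (10.8%) had an unadjusted p under 0.05 against 16.2% of all genes. The 15 include ENSRNOG00000054944 and ENSRNOG00000061829, both members through the groups where they are high, whose part of this count is no result. DESeq2 called 2 members lower, both copies of 7SK, where it called 1.19% of all genes. The smallest adjusted p in edgeR belonged to one of them, ENSRNOG00000054944. It had 0.824, 0.685, 0.963, 0.514, 0.583 and 0.597 CPM in wt replicates 1 to 6 and 0.140, 0.314, 0.195 and 0.235 CPM in Del/Dup replicates 2 to 5. Those 4 libraries held 3 to 6 reads each, and all lay below wt. The row was a member through all 6 wt, 2 Del/+ and 5 Dup/+ libraries with at least 10 reads and through 0 Del/Dup libraries, so its difference between Del/Dup and wt describes values that the choice of members used. The fitted log2 fold change was -1.40 ± 0.28 with adjusted p = 0.0568 in edgeR and -1.67 with adjusted p = 0.0169 in DESeq2. For Del/+ the difference of this row from wt was -0.94 ± 0.26 with adjusted p = 0.0797. For Dup/+ it was -0.07 ± 0.23 with adjusted p = 0.960. This row, ENSRNOG00000061873, ENSRNOG00000060289 and, in Dup/+, ENSRNOG00000053636 were singled out after their values were seen.

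The second 7SK copy, ENSRNOG00000061873, is the next most read row after the leading one. It had 24.0 ± 4.17 CPM in wt (SD, n = 6) and 16.8 ± 1.12 CPM in Del/Dup (SD, n = 4), with no overlap. Its log2 fold change was -0.51 ± 0.13, with adjusted p = 0.136 in edgeR and 0.0240 in DESeq2. With ENSRNOG00000060289, 3 members in total, all of them 7SK copies, lay below every wt library in all Del/Dup libraries, against 1.22% of all genes (ENSRNOG00000054944 is a member through the other groups alone, so its part of this count is no result), and 0 lay above, against 1.33%. Choroid plexus markers summed to 40.6 to 1199 CPM in Del/Dup, above the 2.79 to 33.8 CPM of wt, with 5 of 5 at an unadjusted p under 0.05, and oligodendrocyte markers, 3 of 3 at such a p, to 4969 to 6096 CPM. Hippocampal neuron markers, 2 of 5 at such a p, summed to 1977 to 2498 CPM in Del/Dup, and 1 of 4 microglia markers had such a p. Their part in these values was not tested. The median over the 139 members was -0.02 with 69 positive, and 0.15 without wt replicate 3.

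Del/+ against Dup/+ sets 1 copy of the interval against 3. A single member was called, lower in Del/+, at 0.719% of members against 0.784% of all genes. It was the 7SK copy ENSRNOG00000058031, with 0.450, 0.328, 0.395 and 0.376 CPM in Del/+ replicates 1 to 4 and 1.20, 0.796, 0.776, 0.962 and 1.23 CPM in Dup/+ replicates 1 to 5. The 2 groups did not overlap, and the wt libraries, at 0.436 to 0.796 CPM, overlapped both. Its log2 fold change was -1.21 ± 0.23 with adjusted p = 0.0108. With a term for the high multi-mapped share, which sets Del/+ replicate 4 alone against Dup/+, it was -1.25. With the share as a covariate the adjusted p was 0.0736 in edgeR, and without Del/+ replicate 2 it was 0.0526. Among the 24 members of 7SK, 22 were negative with a median of -0.28, and 6 had an unadjusted p under 0.05, against 13.5% of all genes. ENSRNOG00000054944, a member through the groups where it is high, is among the 6, and its part of that count is no result. With the term for the high share, and so from Del/+ replicate 4 alone, 17 were negative with a median of -0.09. Red cell genes moved with this comparison as well, with 3 of 4 rows called lower in Del/+ and a median of -0.72 (sums of 103 to 162 CPM in Del/+ and 179 to 243 CPM in Dup/+). Of the hippocampal neuron markers 2 of 5 (median -0.15) and of the oligodendrocyte markers 1 of 3 (median 0.17) had an unadjusted p under 0.05 there. Their part in the 7SK values was not tested. Over all 139 members the median was -0.11, with 100 negative.

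Del/Dup against Del/+ addresses the duplication carried beside the deletion. The SRP RNA copy ENSRNOG00000051703 was the 1 member called, lower in Del/Dup, against 0.175% of all genes. Its 2.94, 1.57, 3.0 and 3.13 CPM in Del/Dup replicates 2 to 5 were all below the 4 Del/+ values, with a log2 fold change of -1.48 ± 0.30 and adjusted p = 0.0403. Within the 7 libraries of high share alone it was -1.60 with adjusted p = 0.0186, and with wt replicate 5 counted as Dup/+ the adjusted p was 0.0684. The call also ended with the replicate number, which did not pair the libraries, as a block (adjusted p = 0.124 in edgeR). It ended too with the multi-mapped share as a covariate (0.0543) and without wt replicates 3 and 6 and Del/Dup replicate 4 (0.0576). Omitting any 1 of 13 libraries ended it, with adjusted p between 0.0525 and 0.154 in edgeR, and it held without wt replicate 3, 5 or 6, Del/+ replicate 4 or Dup/+ replicate 3 or 5. This comparison and that with wt share the Del/+ libraries. Of the other 13 SRP RNA members, 11 were negative and 2 positive, and the median of all 14 was -0.21. The members as a whole had a median of 0.15 with 89 of 139 positive, and 10 had an unadjusted p under 0.05, against 8.48% of all genes. Without Del/Dup replicate 4 that median turned to -0.09.

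**Figure D5:**
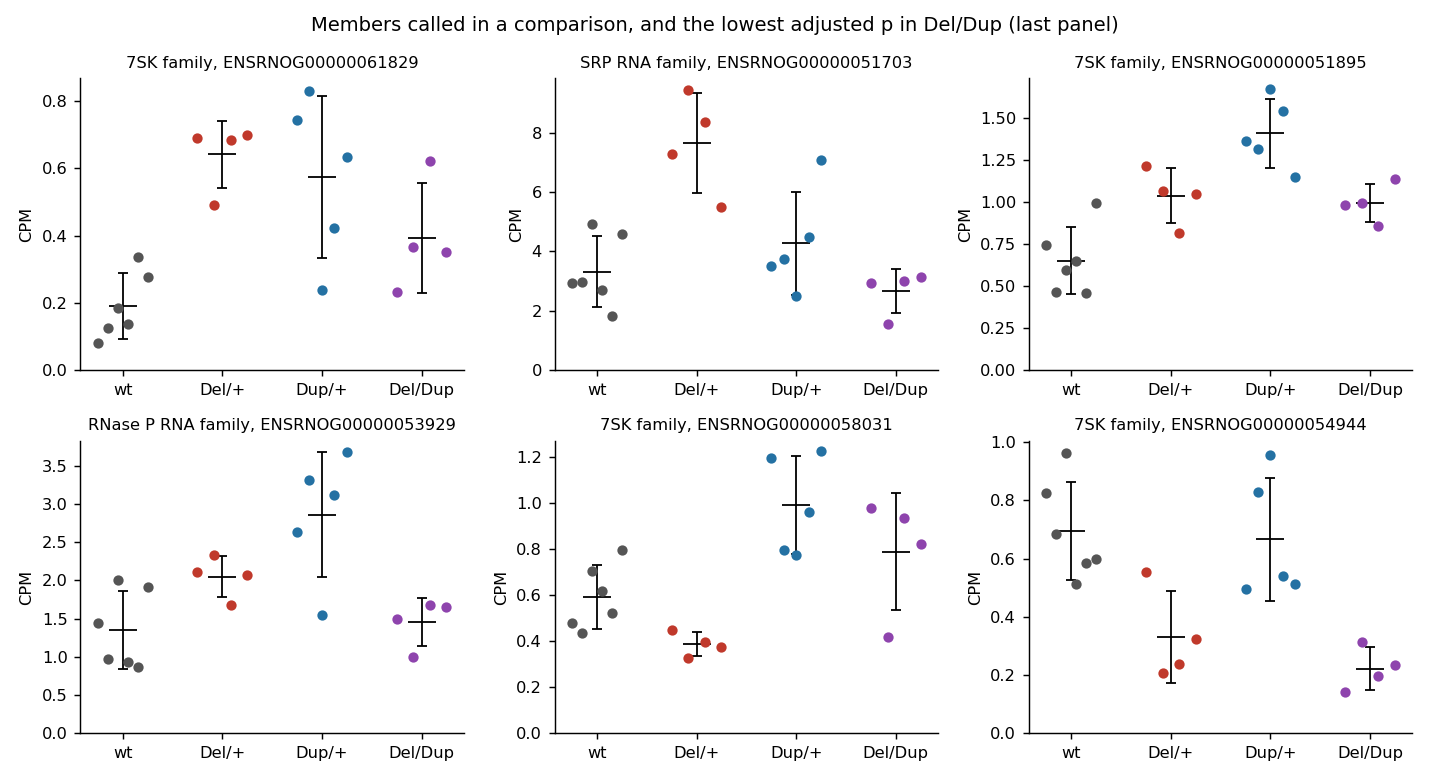
CPM in each library (dots) by genotype, with the mean and SD as bars, for the 5 members called in any comparison and for the 7SK copy with the lowest adjusted p in Del/Dup against wt (last panel). The 7SK copy ENSRNOG00000061829 and the SRP RNA copy ENSRNOG00000051703 lie above every wt library in all 4 Del/+ libraries, and ENSRNOG00000051895 does so in all 5 Dup/+ libraries; axes start at 0.

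SNORD113, a C/D box snoRNA family of an imprinted cluster, had 13 members and 0 calls with edgeR or DESeq2. They summed to 11.3 ± 2.60 CPM in wt (SD, n = 6), 10.5 ± 1.52 in Del/+ (n = 4), 10.7 ± 1.28 in Dup/+ (n = 5) and 13.2 ± 0.492 in Del/Dup (n = 4). In Del/Dup 11 of 13 had a positive log2 fold change against wt, with a median of 0.23, and 1 had an unadjusted p under 0.05 there and 1 in Del/Dup against Del/+. SNORA73 (RF00045), an H/ACA box snoRNA family, summed to 71.2 and 56.7 CPM in wt replicates 3 and 6 and to 21.4 to 31.4 CPM in the other wt libraries, so the same libraries were high as for U1 and U4. The single members of SNORD115 and SNORD116 averaged 0.521 ± 0.435 and 0.911 ± 0.177 CPM in wt (SD, n = 6), and neither was called in a comparison.

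The protein partners of these RNAs were taken as a list of 81 genes, of which 76 were tested, from the 7SK, SRP, RNase P and MRP, spliceosomal and nucleolar particles, the Y RNA binding proteins and the polymerase III and snRNA promoter factors. With edgeR 0 of them were called in each of the 5 comparisons and in the slope. At an unadjusted p under 0.05 there were 13 in Del/+ against wt, or 17.1% where 18.4% of all genes had such a p. There were 9 in Dup/+ against wt (11.8% against 8.94%) and 19 in Del/Dup against wt (25% against 16.2%). There were 6 in Del/+ against Dup/+ (7.89% against 13.5%), 9 in Del/Dup against Del/+ (11.8% against 8.48%) and 5 for the slope (6.58% against 5.95%). DESeq2 called Polr3f, Snapc1 and Ssb in Del/+ against wt among the 55 of 76 with an adjusted p, where it called 4.24% of all genes. With its filter on low means off it called Nop10, Snapc1 and Ssb. It called Snrnp70 in Del/Dup against wt, where it called 1.19% of all genes, and in Del/Dup against Del/+, where it called 0.479%, and 0 in the other comparisons and the slope. Among the 6 tested proteins of the 7SK particle, log2 fold changes in Dup/+ against wt ran from -0.12 to 0.24. Of 7 small RNA genes listed by symbol, 3 were tested with edgeR (Terc, Rpph1 and Rn7sl1) and 0 were called, with 1 at an unadjusted p under 0.05 in Dup/+ against wt and 1 in Del/Dup against wt. That gene was Rn7sl1, an SRP RNA gene named here after its values were seen, which differed by 0.81 ± 0.26 in Dup/+ with adjusted p = 0.328.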

How the data were processed

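Per the labels and the study's methods, the authors sequenced stranded libraries as short single-end reads, aligned them to rn6 with HISAT2 and counted them with HTSeq. What the authors deposited for each library is a whole-number read count for every gene, unnormalized, with reads aligned to several places left out and given as 1 total. CPM was computed on library sizes scaled by TMM. Tests were edgeR 4.0.16 quasi-likelihood F tests in R 4.3.3 on the 15440 genes kept by filterByExpr, with 1 mean per genotype over the 19 libraries, a prior count of 2 and Benjamini-Hochberg adjustment over all genes tested. A call is an adjusted p under 0.05. The standard error is the log2 fold change over the root of F. Summed family levels got no test. DESeq2 1.42.0, other filters, scalings, covariates and sets of libraries were alternatives. The scripts were tested on simulated data. Members named singly were the highest of each listed family, the 10 highest, those called, and those nearest the threshold. Any other was named after its values were seen. The members and lists were chosen with earlier results of these data known.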

Additional observations from a re-analysis of the deposited data

Results flagged for a closer look

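Of 112 groups of 4 to 6 libraries examined for named members, 7 had 1 library far from the others, where chance gives about 1 in 20. In wt replicate 3, 5.8S ribosomal RNA (ENSRNOG00000051831) stood at 120 CPM against 23.3 to 59.3 in the other wt libraries, and U3 snoRNA (RF00012, ENSRNOG00000056198) at 4.22 CPM against 0.399 to 1.31. The 5.8S row also stood at 38.2 CPM in Del/+ replicate 1 against 25.3 to 27.0 in the other Del/+ libraries. SNORD113 ENSRNOG00000056115 had 3.36 CPM in Dup/+ replicate 2 against 1.90 to 2.04, and RF01296 (ENSRNOG00000060559) had 29.3 CPM in Dup/+ replicate 3 against 63.5 to 68.4. The called 7SK copy ENSRNOG00000061829 had 0.492 CPM in Del/+ replicate 2 against 0.684 to 0.698, and the called SRP RNA copy ENSRNOG00000051703 had 1.57 CPM in Del/Dup replicate 3 against 2.94 to 3.13.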

How the results depend on the processing

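Counts of called members follow in the order Del/+, Dup/+ and Del/Dup against wt, Del/+ against Dup/+ and Del/Dup against Del/+. There edgeR gave 2, 2, 0, 1 and 1, and called 0.771%, 0.272%, 0.0907%, 0.784% and 0.175% of all genes. For the other settings, apart from DESeq2 with its filter, the share of all genes called is not given. Those counts show only whether calls were kept, and not whether members were called more often than other genes. With wt replicate 5 counted as Dup/+ they were 1, 0, 1, 1 and 0. With the replicate number as a block they were 0, 2, 0, 1 and 0, and the numbers did not pair the libraries, since same-numbered pairs correlated at -0.17 to 0.12 and 0 libraries correlated best with their own number. With the multi-mapped share as a covariate they were 0, 1, 0, 0 and 0. With a term for its high range there was 1 in Dup/+ against wt and 1 in Del/Dup against Del/+. The other comparisons rest there on Del/+ replicate 4 as the only Del/+ library of low share, so no count is given. Within the low range alone, Dup/+ against wt gave 1. Without wt replicates 3 and 6 and Del/Dup replicate 4, chosen after seeing the data, they were 1, 4, 0, 1 and 0. DESeq2 gave 4, 2, 1 and 1 from Dup/+ against wt on, where it called 0.518%, 1.19%, 1.73% and 0.479% of all genes. In Del/+ against wt 117 of 139 members had no adjusted p, and in Del/Dup against Del/+ 40 had none. With its filter on low means off, also chosen after seeing the data, it gave 3, 4, 2, 1 and 1. Leaving out 1 library at a time gave 0 to 3, 1 to 4, 0 to 1, 0 to 1 and 0 to 1. Such omissions ended the call of ENSRNOG00000051895 in 0 cases and of ENSRNOG00000058031 in 1 (Del/+ replicate 2, adjusted p = 0.0526 with edgeR). They ended that of ENSRNOG00000061829 in 4 (wt replicates 1, 2 and 3 and Del/+ replicate 4) and of ENSRNOG00000053929 in 14. For ENSRNOG00000051703 the number was 5 in Del/+ against wt (wt replicates 1, 2 and 5 and Del/+ replicates 2 and 3) and 13 in Del/Dup against Del/+. The members' median moved to 0.22 in Del/+ and 0.34 in Dup/+ against wt without the 3 libraries, and to -0.25 in Del/+ against Dup/+ with the covariate. The leading 7SK row turned to 0.0242 in Del/+ without the 3 libraries. In Dup/+ it turned to -0.000119 with no filter, -0.0848 with wt replicate 5 as Dup/+ and -0.000566 with the covariate, and ranged from -0.0499 to 0.0748 over omitted libraries. RNase MRP RNA in Dup/+ turned to 0.15 without the 3 libraries and ranged from -0.22 to 0.0351 over omitted libraries. The causes were not tested. Over omitted libraries the members' median ran from -0.20 to 0.02, -0.09 to 0.13, -0.17 to 0.15, -0.20 to -0.09 and -0.09 to 0.25 in the order above. The 7SK copies called held as few as 3 reads in a library.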
